A study of Homo sapiens with 24 samples.

Results

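Sodium arsenite (SA100 in the array titles, 100 µM for 2 h) was compared with no drug in 5 HAP1 lines whose eIF2-alpha can still be phosphorylated at serine 51. HAP1 is a near-haploid human line derived from the chronic myelogenous leukaemia line KBM-7, bought as edited lines from Horizon. The lines were the parental line (PAR) and lines named for the loss of 1 eIF2-alpha kinase, HRI, GCN2, PKR or PERK. The comparison used 12 of the 24 arrays in the series: 5 arsenite arrays, 1 per line, and 7 arrays without drug, 2 each for PAR and HRI and 1 each for GCN2, PKR and PERK. The arrays were chosen by their titles. The agent field of the arsenite arrays names lomustine, so the grouping rests on the titles. The other 12 arrays, from the S51A line (whose eIF2-alpha carries an alanine in place of serine 51) and from lomustine (200 µM, 2 h), entered only where a difference from them was tested. The labels do not say that repetitions came from separate cultures, whether a line is 1 clone, or whether the untreated cells received a vehicle. P-values therefore measure the spread between arrays, which may be technical in part.

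Arsenite binds thiol groups of proteins and is a classical inducer of stress granules. Misfolded proteins release the heat shock factor HSF1, which binds heat shock elements in chaperone genes. Zinc and other metals that are set free activate MTF1 at metallothionein genes, and modified KEAP1 releases NRF2, the regulator of antioxidant genes such as HMOX1. Stress-activated MAP kinases turn on immediate-early genes, whose promoters hold serum response (CArG) and cAMP response elements. HRI, which arsenite activates, phosphorylates eIF2-alpha; general translation then slows while ATF4 is translated and switches on its target genes. These statements are background and were not measured here.

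Gene expression was measured on Affymetrix arrays as RMA values on a log2 scale, and a change is the arsenite mean minus the no-drug mean with line as a block, in log2 units. A gene was called when its adjusted p from limma was under 0.05, and 15318 genes passed the filter on low values. Of these, 292 were called higher (1.91%) and 108 were called lower (0.705%), while 2823 had an unadjusted p under 0.05. By at least 2-fold, 93 genes were higher and 23 were lower. The sign was the same in all 5 lines for 285 of the 292 and 96 of the 108, and the 5 arsenite arrays did not overlap the 7 untreated arrays for 205 and 58 of them. These genes were called by the same contrast. Over all 15318 genes, 1810 were higher and 895 lower in all 5 lines, and the groups did not overlap for 372 and 133. The median change over all genes tested was 0.06. The split of called genes between the directions moved with the scaling: 317 higher and 243 lower after a further quantile normalization, and 162 and 142 after centring each array on its median.

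Some arsenite arrays went against their labels. TCEAL9, chosen after its values were seen, read 7.01 and 6.61 in the GCN2 arrays without drug and with lomustine and 1.61 to 2.59 in those of all other lines. It read 7.72 in the array labelled GCN2 SA100 but also 7.35 in the array labelled PKR SA100, and 3.06 in the array labelled PERK SA100. GABRA5 was likewise high in GCN2 (5.87 and 6.03, against 2.13 to 4.06 elsewhere), and it read 6.49 in the array labelled PKR SA100 and 3.77 in the array labelled GCN2 SA100. EIF2AK2, which encodes PKR, read 6.74 in the array labelled PKR SA100 and 7.27 to 7.94 in the other 11 arrays compared here. It read 7.79 and 7.55 in PKR without drug and with lomustine, and 6.35 in 1 lomustine array of S51A (repetition B), so a low value does not mark the PKR line. EIF2AK3, which encodes PERK, read 3.33 and 3.54 in the PERK arrays without drug and with lomustine, and 4.31 in the array labelled PERK SA100, but it was as low in some arrays of another line (3.33 to 3.38 in 3 of S51A), so it marks PERK poorly. SDC2 read 4.82 and 5.48 in PERK without drug and with lomustine, and 7.51 in the array labelled PERK SA100. The marks were mixed. By more than 0.5 in the arrays without arsenite, 7 genes set GCN2 apart. The array labelled PKR SA100 was in the GCN2 range or above for TCEAL9 and GABRA5 and not for the other 5. The array labelled GCN2 SA100 was so for TCEAL9 and EGFR and not for the other 5. That range rests on few arrays. For HOOK1 (4.10), PSMB8 (3.82) and YIPF4 (6.89), GCN2 SA100 still lay above the highest array of other lines without arsenite (3.60, 3.55 and 6.64). The array labelled PKR SA100 read 2.72, 3.24 and 6.68 for them. SEMA3A read 5.90 and 6.08 in GCN2 without arsenite, 3.53 in the array labelled GCN2 SA100 and 4.12 in that labelled PKR SA100. The array labelled PKR SA100 also read 6.94 for PPIAP46 and 8.35 for TMEM47, the 2 genes that set HRI apart. GID8, the other gene that set PERK apart, read 5.99 in the array labelled PERK SA100, below the 6.23 to 7.43 of the other lines. Without the array labelled PKR SA100, 118 of 15201 genes were called higher and 29 lower. Of these, 118 and 26 were among the calls above. GCN2, PKR and PERK had 1 untreated and 1 arsenite array each. With line as a block, a fit without either array lost that line. The fit without the untreated PKR array also gave 118 and 29, so the drop cannot be assigned to the arsenite array. Without the arrays labelled PKR SA100 and PERK SA100, 47 of 15078 were higher and 17 lower, with 3 arsenite arrays left. These totals stand beside the list counts of the same fits below. The counts also depended on each of the other 3 arsenite arrays: 613 higher and 69 lower without PAR SA100, 112 and 17 without GCN2 SA100, and 248 and 204 without HRI SA100. Left out 1 at a time over all 12 arrays, 99 of the 292 and 14 of the 108 kept their call in every fit. For GCN2, PKR and PERK both fits of a line dropped that line, so the 12 fits are not all distinct checks.

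**Figure D1:**
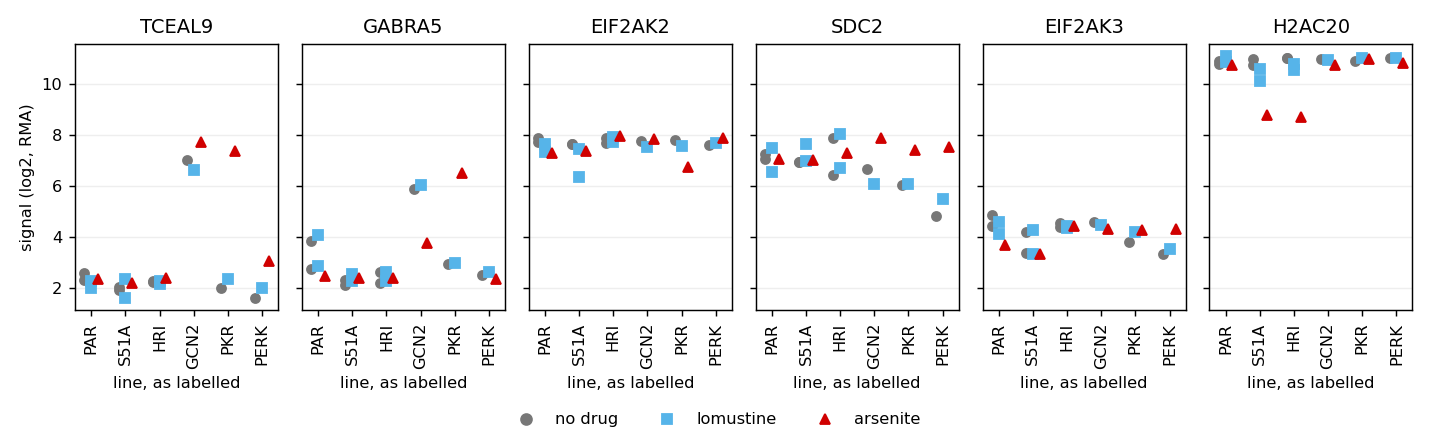
Signal (log2, RMA; vertical axis) of 6 genes in all 24 arrays, by the line named in the label and by drug (grey circles no drug, blue squares lomustine, red triangles arsenite). The arsenite array labelled PKR reads 7.35 for TCEAL9, near the GCN2 arrays, and the arsenite arrays of HRI and S51A are low for H2AC20.

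The transcript of the targeted kinase gives no clear check of the lines. EIF2AK1, which encodes HRI, read 7.49 and 7.80 in HRI and 7.73 to 7.94 in the other untreated arrays, and EIF2AK2 read 7.79 in PKR and 7.61 to 7.89 in the others. EIF2AK4, which encodes GCN2, read 5.84 in GCN2 and 6.10 to 6.40 in the others, and EIF2AK3 read 3.33 in PERK and 3.82 to 4.84 in the others. A transcript level does not show a coding edit. With arsenite, 0 of the 5 genes for these kinases and eIF2-alpha passed in limma, and 0 had an unadjusted p under 0.05, with changes of -0.21 to 0.01. ATF4 itself, whose induction is mainly translational, differed by 0.21 ± 0.12 (SE; limma adjusted p = 0.36). Markers of blood cells were low, with untreated means of 2.40 to 3.84 in the 7 of 14 that passed the filter, and so were those of epithelium (7 of 10 tested, 2.38 to 4.83) and fibroblasts (3 of 11 tested, 2.87 to 3.92). In limma 0 markers passed, and 1 of epithelium and 1 of fibroblasts had an unadjusted p under 0.05.

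Immediate-early transcription factors were among the largest rises. Of 35 tested, 19 rose (54.3% against 1.91% of all genes) and 0 fell, with a median change of 0.74 against 0.06 over all genes. JUN, the transactivating subunit of AP-1, rose most of all genes tested. It read between 2.58 and 4.38 in the 7 untreated arrays (median 3.51), and 9.52, 9.32, 10.03, 9.82 and 9.81 with arsenite in PAR, HRI, GCN2 and the arrays labelled PKR and PERK. The lowest arsenite array lay above the highest untreated array by more than the whole untreated range. The rise of JUN was 6.18 ± 0.27 (SE, 5 against 7 arrays), which is 72.4-fold (limma adjusted p = 2.9e-07). EGR1, a zinc finger factor that many mitogens and stresses induce, read 3.73 to 4.75 untreated (median 4.25), and 9.18, 7.86, 10.02, 9.35 and 9.44 in the same order of lines. The HRI array was lowest for EGR1, and its value still exceeded each untreated one. Its rise was 4.85 ± 0.26, 28.9-fold (limma adjusted p = 1.06e-06). FOS, which pairs with JUN, read 2.69 to 3.38 untreated (median 2.81), and 6.83, 5.83, 7.40, 6.67 and 6.80 with arsenite. Again HRI was lowest and GCN2 highest. ATF3, which is induced by many stresses, rose from a mean of 3.77 ± 0.61 (SD, n = 7) to 6.55 ± 0.19 (SD, n = 5).

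Several families had more than 1 called member. All of JUN, JUNB (1.41) and JUND (1.80) were called, as were FOS and FOSB (2.13) but not FOSL1 (0.74, limma adjusted p = 0.106) or FOSL2 (0.42). Among Krüppel-like factors KLF6 rose by 1.94, KLF10 by 1.62, KLF2 by 1.33 and KLF11 by 0.99, while KLF4 (0.51) and KLF5 (0.27) did not pass. The nuclear receptors NR4A1 and NR4A3 rose by 0.82 and 0.73, and the dominant-negative helix-loop-helix factors ID1 and ID3 by 1.35 and 1.04, while NR4A2 (0.12) and ID2 (0.05) did not pass. In the fit without the array labelled PKR SA100, 15 of the factors passed, beside 118 of all 15201 genes higher. Without that labelled PERK SA100 as well, 10 did, beside 47 of 15078. The promoter of EGR1 is shown because it holds 2 CArG boxes (in capitals). At least 1 such box stood in 1.17% of the promoters of genes tested and in 1.6% of those of called-higher genes. The promoter of DUSP1 is shown for its cAMP response element, TGACGTCA (in capitals). Both come from RefSeq (GRCh38.p14), 250 bases before to 50 after the start, at chr5:138465229-138465528 (plus strand) and chr5:172771146-172771445 (minus strand).
EGR1: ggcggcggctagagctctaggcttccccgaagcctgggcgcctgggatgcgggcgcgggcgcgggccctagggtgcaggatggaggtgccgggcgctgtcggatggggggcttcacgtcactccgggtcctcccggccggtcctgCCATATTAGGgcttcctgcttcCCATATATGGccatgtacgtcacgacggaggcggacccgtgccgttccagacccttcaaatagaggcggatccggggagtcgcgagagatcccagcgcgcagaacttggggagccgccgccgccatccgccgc
DUSP1: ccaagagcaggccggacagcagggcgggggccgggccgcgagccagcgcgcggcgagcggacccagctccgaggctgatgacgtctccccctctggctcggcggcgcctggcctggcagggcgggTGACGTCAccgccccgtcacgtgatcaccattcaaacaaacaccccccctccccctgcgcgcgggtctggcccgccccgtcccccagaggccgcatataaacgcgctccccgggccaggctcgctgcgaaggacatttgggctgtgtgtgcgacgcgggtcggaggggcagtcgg

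Some other immediate-early genes and brakes on MAP kinases were also called higher. Of 19 other immediate-early genes, 9 rose (47.4%, beside 1.91% of all genes) and 0 fell (median 0.60). IER2, a nuclear immediate-early protein, read 3.84 to 4.62 untreated and 5.78 in HRI, 6.72 and 6.98 in the arrays labelled PERK and PKR, and up to 7.16 in PAR with arsenite. GADD45B and GADD45G, which bind stress kinases, rose by 1.85 and 1.69. The GADD45G values were 6.94, 4.83, 7.24, 7.54 and 7.56 against 4.68 to 5.32 untreated. The HRI array alone lay within the untreated range. CCN1, a secreted matrix protein, rose by 1.55 with overlapping groups. Of 18 feedback inhibitors of MAP kinase signalling, 6 rose (33.3%) and 0 fell (median 0.49). DUSP1, a phosphatase of p38 and JNK, read 4.93 to 5.20 in the untreated arrays, a range under the distance to any arsenite array (9.17, 8.61, 9.25, 9.03 and 9.07). Its rise of 3.94 ± 0.12 was 15.4-fold (limma adjusted p = 1.35e-08). DUSP10, of the same kind, rose by 3.24 and DUSP8 by 1.83. Untreated, DUSP10 read 1.71 to 2.88 with a mean of 2.36, below the filter value of 2.42. It passed the filter only through its arsenite arrays (5.04 to 5.90), where it is high. ERRFI1, an inhibitor of the EGF receptor, rose by 1.63 with an SE of 0.37 (limma adjusted p = 0.0458), and 1 untreated HRI array read 6.03 where the other 6 read 3.78 to 4.38. Of 13 regulators of mRNA decay, ZFP36 (1.74) and ZFP36L1 (0.67), which target AU-rich messages, rose. These counts were 5 of 19, 5 of 18 and 2 of 13 without the array labelled PKR SA100, and 2, 3 and 1 without both doubted arrays.

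**Figure D2:**
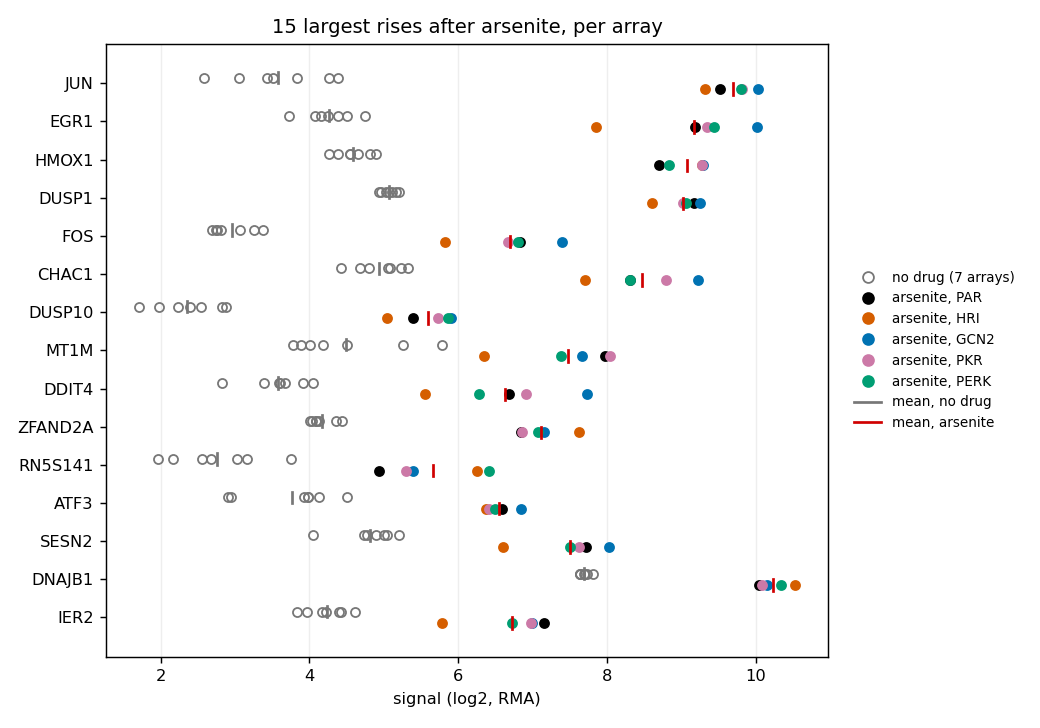
Signal (log2, RMA; horizontal axis) of the 15 genes with the largest rises in all 5 lines. Open grey circles are the 7 untreated arrays, filled circles the 5 arsenite arrays coloured by labelled line, and short lines the group means. The groups do not overlap for any of the 15, and the HRI array is the lowest arsenite array for 11 of them (all but HMOX1, ZFAND2A, RN5S141 and DNAJB1) and the highest for ZFAND2A and DNAJB1.

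Heat shock genes were called higher in part. Of 23 chaperones and co-chaperones regulated by HSF1, 12 rose (52.2%, beside 1.91% of all genes) and 0 fell (median 0.45). Of 11 other HSF1 targets 6 rose (54.5%) and 0 fell (median 0.76). DNAJB1, the co-chaperone that delivers clients to HSP70, read 7.64 to 7.82 in all 7 untreated arrays, and 10.05, 10.53, 10.15, 10.09 and 10.34 with arsenite. The untreated arrays lay within a narrow band, and HRI was the highest arsenite array. Its rise was 2.54 ± 0.12, 5.81-fold (limma adjusted p = 4.26e-07). BAG3, which links HSP70 to selective autophagy, read 5.07 to 5.46 untreated and 7.43 to 7.89 with arsenite (2.41 ± 0.12). ZFAND2A (also called AIRAP), a proteasome-associated protein known for its arsenite inducibility, read 4.01 to 4.44 untreated and 6.85, 7.63, 7.15, 6.86 and 7.07 with arsenite. As for DNAJB1 and BAG3, HRI was highest. DEDD2 rose by 2.26, and the collagen chaperone SERPINH1 by 1.42. The HSP70 family member HSPA1L rose by 1.80, with 1.64 to 1.84 over its 5 probe sets. HSPA1L and the major HSP70 genes HSPA1A and HSPA1B are close copies, and probe sets annotated with both of the latter were left out, so cross-hybridisation with them was not tested. CHORDC1, an HSP90 co-chaperone, rose by 1.75, HSPH1 of the HSP110 family by 0.92, the small heat shock protein HSPB1 by 0.78 and HSP90AA1 by 0.45 (limma adjusted p = 0.045). HSPA6, an HSP70 gene that is nearly silent without stress, was on neither list and was picked after its values were seen. HSPA6 rose from a mean of 2.08 to 4.27. Its untreated mean lies below the filter value of 2.42, so it may have passed the filter only through the 5 arsenite arrays. Of the 23 and the 11, 7 and 5 passed without the array labelled PKR SA100, and 4 and 3 without both doubted arrays.

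The heat shock element was searched as GAANNTTC or TTCNNGAA, which read the same on both strands, in RefSeq promoters. Of the 54 promoters of 33 genes on both HSF1 lists, 37% held at least 1 match, against 16.3% of the 313 promoters of called-higher genes, 9.38% of the 96 of called-lower genes, 10.4% of the 16442 of all genes tested and 13.5% of all 35116 promoters in the table. CHORDC1 and DNAJB1 are shown, at chr11:90223000-90223299 (minus strand) and chr19:14518348-14518647 (minus strand) (GRCh38.p14), since they hold 6 and 2 matches (in capitals, which may overlap).
CHORDC1: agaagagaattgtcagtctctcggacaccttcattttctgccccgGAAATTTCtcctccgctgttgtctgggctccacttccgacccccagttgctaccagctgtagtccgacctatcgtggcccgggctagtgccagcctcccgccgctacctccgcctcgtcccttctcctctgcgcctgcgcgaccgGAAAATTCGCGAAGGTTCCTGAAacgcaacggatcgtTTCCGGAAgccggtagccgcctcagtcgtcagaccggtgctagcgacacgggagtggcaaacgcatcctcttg
DNAJB1: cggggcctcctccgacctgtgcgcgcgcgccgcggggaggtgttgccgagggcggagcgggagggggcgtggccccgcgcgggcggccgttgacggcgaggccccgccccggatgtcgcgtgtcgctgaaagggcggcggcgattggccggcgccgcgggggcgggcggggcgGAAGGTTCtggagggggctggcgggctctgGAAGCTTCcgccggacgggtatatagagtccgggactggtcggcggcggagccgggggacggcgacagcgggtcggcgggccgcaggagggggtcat

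Metallothioneins, small cysteine-rich proteins that bind zinc and other metals, and the zinc exporter SLC30A1 were among the called genes as well. Of 9 MTF1 targets tested, 5 rose (55.6%, beside 1.91% of all genes) and 0 fell, and the median change of 1.14 was the highest of all lists. SLC30A1 read 7.28 to 7.92 untreated and 9.48, 9.34, 9.61, 9.47 and 9.52 with arsenite. The 5 arsenite values spanned less than the untreated ones. Its rise was 1.98 ± 0.13, 3.95-fold (limma adjusted p = 7.53e-06). MT1M read 3.78 to 5.78 untreated, with both PAR arrays on top, and 7.97, 6.35, 7.66, 8.04 and 7.38 with arsenite (3.06 ± 0.27). MT1X read 6.99 to 8.52 untreated and 9.66, 9.05, 9.68, 9.63 and 9.76 with arsenite. The HRI array was the lowest arsenite array for both, and also for MT1F, at 6.82 against 7.98 to 8.14 in the other 4. MT2A rose by 1.00 ± 0.13. Metallothionein genes are near-identical, and signal may be shared between their probe sets. The counts were 5 of 9 without the array labelled PKR SA100 and 3 without both doubted arrays.

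The metal response core, searched as TGCACNC or TGCGCNC on both strands, is short and was common: 36.2% of the promoters of genes tested held a match and 29.6% of all promoters in the table. It stood in 6 of 9 promoters of the 8 MTF1 targets with an entry. MT1X and MT2A are shown for the number of cores in each, 4 and 8 (in capitals), at chr16:56682220-56682519 (plus strand) and chr16:56608334-56608633 (plus strand) (GRCh38.p14).
MT1X: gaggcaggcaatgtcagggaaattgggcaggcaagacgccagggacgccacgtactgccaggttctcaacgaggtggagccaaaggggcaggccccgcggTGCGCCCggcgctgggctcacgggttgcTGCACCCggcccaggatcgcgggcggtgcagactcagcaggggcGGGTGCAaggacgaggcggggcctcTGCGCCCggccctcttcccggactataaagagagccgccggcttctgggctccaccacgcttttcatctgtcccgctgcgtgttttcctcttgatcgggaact
MT2A: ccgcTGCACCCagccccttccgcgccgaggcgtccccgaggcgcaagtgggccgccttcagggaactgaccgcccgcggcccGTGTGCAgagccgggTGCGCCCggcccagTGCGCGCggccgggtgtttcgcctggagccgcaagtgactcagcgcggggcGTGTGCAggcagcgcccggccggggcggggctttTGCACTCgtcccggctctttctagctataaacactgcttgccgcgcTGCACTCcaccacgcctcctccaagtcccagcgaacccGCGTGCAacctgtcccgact

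NRF2 targets were split. HMOX1, which degrades haem, had the lowest p of all genes tested. It read 4.27 to 4.89 untreated and 8.70, 9.28, 9.29, 9.28 and 8.84 with arsenite, a rise of 4.50 ± 0.12 or 22.7-fold (limma adjusted p = 2.99e-09). The selective autophagy receptor SQSTM1 rose by 0.69 ± 0.11. None of the other 25 of 27 NRF2 targets passed, and the median was 0.21. GCLM, of glutathione synthesis, differed by -0.53 in PAR, 1.21 in HRI, 0.20 in GCN2, 1.09 in PKR and 1.21 in PERK (limma adjusted p = 0.213). NQO1, a quinone reductase, differed by 1.34 in PKR and 0.99 in PERK, and by 0 or less in the other 3 lines. Without PAR SA100, 6 of 27 were called higher, beside 613 of all 15143 genes. Of 9 genes of arsenic uptake, efflux and methylation only GSTO1, a glutathione transferase, rose, by 0.72, and 0 passed without the array labelled PKR SA100. Of 26 proteasome subunits 0 passed in limma and 7 were higher at an unadjusted p under 0.05, beside 1856 of all 15318 genes. Their median change was 0.21 against 0.06 over all genes.

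Of the targets of ATF4 and its partner CHOP, more regulators than amino acid genes passed. Of 19 regulators tested, 11 rose (57.9%, beside 1.91% of all genes) and 0 fell (median 0.80). CHAC1, which degrades glutathione, read 4.42 to 5.33 untreated and 8.31, 7.71, 9.23, 8.80 and 8.31 with arsenite (3.50 ± 0.18, 11.3-fold, limma adjusted p = 1.06e-06). DDIT4, an inhibitor of mTORC1, read 2.82 to 4.05 untreated and 6.68, 5.56, 7.73, 6.91 and 6.28 with arsenite. SESN2, a leucine sensor that also restrains mTORC1, read 4.05 to 5.20 and then 7.72, 6.61, 8.03, 7.63 and 7.51. For all 3 genes the HRI array was the lowest arsenite array and the GCN2 array the highest, and no arsenite array overlapped the untreated ones. DDIT3, which encodes CHOP, rose by 2.06 ± 0.28, and the line differences ran from 1.01 in HRI to 2.99 in PKR. PPP1R15A (GADD34), which dephosphorylates eIF2-alpha, rose by 1.79 and the pseudokinase TRIB3 by 0.79. ULBP1, a ligand of natural killer cells, rose by 2.27. Of 28 genes of amino acid supply and tRNA charging, CTH (1.35), SLC3A2 (0.86) and SLC38A2 (0.78) rose, SLC7A1 fell by 0.68, and the median was 0.06. ASNS, asparagine synthetase and a standard ATF4 target, differed by 0.18 ± 0.14 (limma adjusted p = 0.544). Without the array labelled PKR SA100 the counts were 10 of 19 and 3 of 28 higher, and without both doubted arrays 6 of 18 and 0 of 28. Of 20 genes of endoplasmic reticulum stress 1 rose, HERPUD1 (1.25), a component of protein degradation there.

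The ATF4 and CHOP core, searched as TGATGNAA on both strands, stood in 5.11% of the promoters of called-higher genes, 2.11% of those of all genes tested and 3.62% of all promoters. The cAMP response element stood in 7.03%, 2.57% and 1.85%. CHAC1 is shown for a core and PPP1R15A for a cAMP response element (in capitals), at chr15:40953221-40953520 (plus strand) and chr19:48872171-48872470 (plus strand) (GRCh38.p14). Among promoters of called-higher genes the AP-1 site TGANTCA stood in 4.47% against 5.39%, the antioxidant core TGACNNNGC in 17.9% against 14.4% and the EGR site GCGNGGGCG in 10.9% against 14%. The antioxidant core can overlap the AP-1 site. All shares are descriptions of these windows.
CHAC1: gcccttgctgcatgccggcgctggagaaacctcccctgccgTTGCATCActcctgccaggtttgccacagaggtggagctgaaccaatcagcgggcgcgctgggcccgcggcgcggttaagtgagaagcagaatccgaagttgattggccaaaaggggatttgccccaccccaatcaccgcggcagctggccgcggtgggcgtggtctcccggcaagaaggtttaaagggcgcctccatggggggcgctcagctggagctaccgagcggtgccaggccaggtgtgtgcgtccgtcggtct
PPP1R15A: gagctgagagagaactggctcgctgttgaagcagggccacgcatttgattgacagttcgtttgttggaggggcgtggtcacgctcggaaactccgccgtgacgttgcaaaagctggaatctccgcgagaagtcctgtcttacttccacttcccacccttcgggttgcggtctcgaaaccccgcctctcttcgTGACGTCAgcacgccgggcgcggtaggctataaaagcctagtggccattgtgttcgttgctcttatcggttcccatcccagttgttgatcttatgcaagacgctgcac

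Apoptosis and p53-linked genes rose in part. PMAIP1 (NOXA), which neutralises MCL1, read 5.23 to 6.11 untreated and 7.25, 6.97, 7.69, 7.44 and 6.97 with arsenite (1.48 ± 0.15). BBC3 (PUMA) rose by 0.54, the death receptor TNFRSF10B by 0.54 and the survival factor MCL1 itself by 0.69, so that 4 of 22 genes of this group rose and 0 fell. Of 23 p53 targets, 6 rose and 0 fell, among them GADD45A (1.27) and the phosphatase PPM1D (1.14). HAP1 is known to carry a dominant-negative p53. In the autophagy list 3 of 20 rose, ATG14 (0.95), SQSTM1 and GABARAPL1 (0.65). Of 28 hypoxia and glycolysis genes 3 rose, ADM (1.57), VEGFA (0.80) and KDM3A (0.63). In these 4 lists 1, 3, 2 and 1 genes passed without the array labelled PKR SA100, and 1, 3, 0 and 0 without both doubted arrays.

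Several lists had few called genes or none. By an unadjusted p under 0.05 in limma, 1856 of all 15318 genes were higher and 967 were lower. Of 17 NF-kB genes 0 passed in limma and 2 were higher at an unadjusted p under 0.05, with NFKBIE closest (0.72, adjusted p = 0.0513). Of 11 interferon genes 0 passed and 3 were higher by the unadjusted p, with a median of 0.20 against 0.06 over all genes. Of 24 stress granule components 0 passed and 3 were lower by the unadjusted p, with a median of -0.06. The granule scaffold G3BP1 read 7.66 to 8.08 untreated and 7.60 to 7.84 with arsenite. Of 42 translation factors 0 passed, with 7 higher and 1 lower by the unadjusted p. Among cell cycle genes the origin factor ORC1 (0.76) and thymidine kinase TK1 (0.48) rose, and the kinetochore protein CENPF fell by 0.89, from 8.05 to 7.16 on average, with no fall in HRI (8.03 with arsenite). LSS was the only one of 17 cholesterol synthesis genes to pass, with a fall of 0.74. Of 388 zinc finger genes of the ZNF series, 19 rose (4.90%, beside 1.91% of all genes, a difference not tested), led by ZNF473 (1.42) and ZNF613 (1.23), and 1 fell. After centring each array 6 of the 388 were higher, beside 162 of all 15318 genes. The count was 37 of 382 without PAR SA100 (beside 613 of 15143) and 6 of 383 without the array labelled PKR SA100 (beside 118 of 15201).

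**Figure D3:**
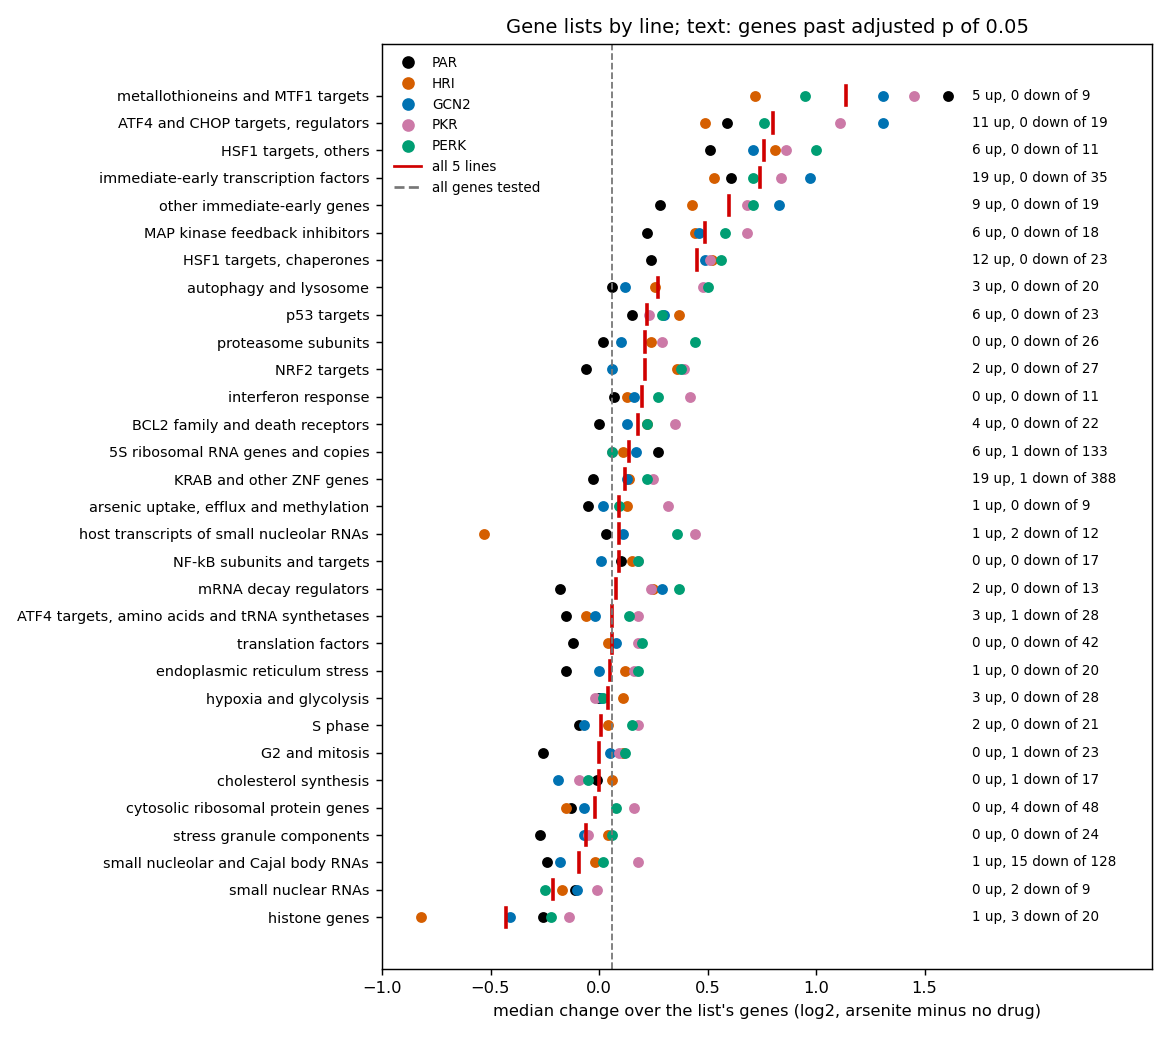
Median change (log2, arsenite minus no drug; horizontal axis) over the genes of each list with at least 9 genes tested. Filled circles are the 5 labelled lines, the red line is the fit over all 5 lines and the dashed line the median of all genes tested (0.06). The text on the right counts the genes past an adjusted p of 0.05. Metallothioneins and MTF1 targets (1.14) lie at the top and histone genes (-0.43) at the bottom.

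The 15 largest falls included 5 small nucleolar RNAs, 2 small nuclear RNAs and the host transcript SNHG1 beside messenger RNAs such as those of H3C13, H2BC26, HMGN2 and RPLP1. Of 128 small nucleolar and Cajal body RNAs, 15 fell (11.7% against 0.705% of all genes) and 1 rose, with a median of -0.09. SNORD75, encoded in an intron of GAS5, read 3.74 to 5.96 untreated and 2.22, 2.13, 2.17, 2.47 and 2.03 with arsenite. All but 1 of these arsenite values lay below 2.42, the median of all values in the table, where signal has little room to fall. The fall was 2.64 ± 0.28 (limma adjusted p = 0.000343). SNORD41 fell by 1.47, with 1 untreated PAR array at 7.72, within the arsenite range, and the others up to 9.54, and SNORD12C by 1.41, SNORD4B by 1.36 and SNORD35B by 1.14. Of their hosts, GAS5 differed by -0.43 ± 0.19 (limma adjusted p = 0.253) and ZFAS1, host of SNORD12C, by 0.19 ± 0.17 (limma adjusted p = 0.597). Both were chosen after their values were seen, and a difference between a small nucleolar RNA and its host was not tested. Of 12 host transcripts named SNHG, SNHG1 fell by 1.80 and SNHG19 by 0.83, and SNHG17 rose by 0.78. RNU12, the small nuclear RNA of the minor spliceosome, read 5.32 to 6.21 untreated and 3.72, 4.30, 3.56, 4.36 and 3.98 with arsenite. RNU12 (-1.78) and RNU5B-1 (-1.08) were the 2 of 9 small nuclear RNAs that fell. Without the array labelled PKR SA100, 13 of 126 small nucleolar RNAs fell, and without both doubted arrays 10. With GCN2 SA100 left out, 6 of 127 fell.

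Of 133 copies of 5S ribosomal RNA, 6 were higher (4.51%, beside 1.91% of all genes) and 1 was lower (0.752%, beside 0.705%). RN5S141 rose by 2.89 ± 0.31 and RN5S132 fell by 1.08. RN5S85 rose by 2.27, and 1 untreated PAR array read 6.38 where the other 6 read 2.98 to 3.93. These copies resemble each other closely, and their probe sets can share signal. The counts were 3 of 132 higher and 0 lower without the array labelled PKR SA100.

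Of 20 histone genes, 3 fell and 1 rose, with a median of -0.43. H3C13 read 3.32 to 5.52 untreated and 2.71, 2.12, 2.75, 3.72 and 2.66 with arsenite, so the array labelled PKR overlapped the untreated range. H2BC26 fell by 1.34, most in HRI (5.22 against 6.44 to 6.91 in the other 4). The median over the histone list was -0.82 in HRI and between -0.41 and -0.14 in the other lines. Of 48 ribosomal protein genes 4 fell (8.33%, beside 0.705% of all genes), and the median was -0.02. They were RPLP1 (-1.08), RPL12 (-0.90), RPL29 (-0.71) and RPS4X (-0.52). Their probe sets read 3.67 to 6.18 untreated, while untreated means in the list reached 10.72. Without the array labelled PKR SA100, 2 histone genes and 2 ribosomal protein genes fell, beside 29 of all 15201 genes. Without both doubted arrays 1 of each did, beside 17 of 15078. The falls of MIR3143 (1.28) and MIR1299 (1.14) were read by probe sets for the hairpin loci, not for mature miRNAs. HMGN2, a nucleosome-binding protein, fell by 1.10. Its probe set was weak, with 2.84 to 4.23 untreated and 1.87 to 3.02 with arsenite, near the median of all values (2.42). POLR2J4 fell by 1.18 on the probe set used, while its other probe set differed by 0.21. In lysates of whole cultures, fewer cells of a kind and less RNA per cell cannot be told apart, and RMA brings the probes of all arrays to 1 distribution.

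**Figure D4:**
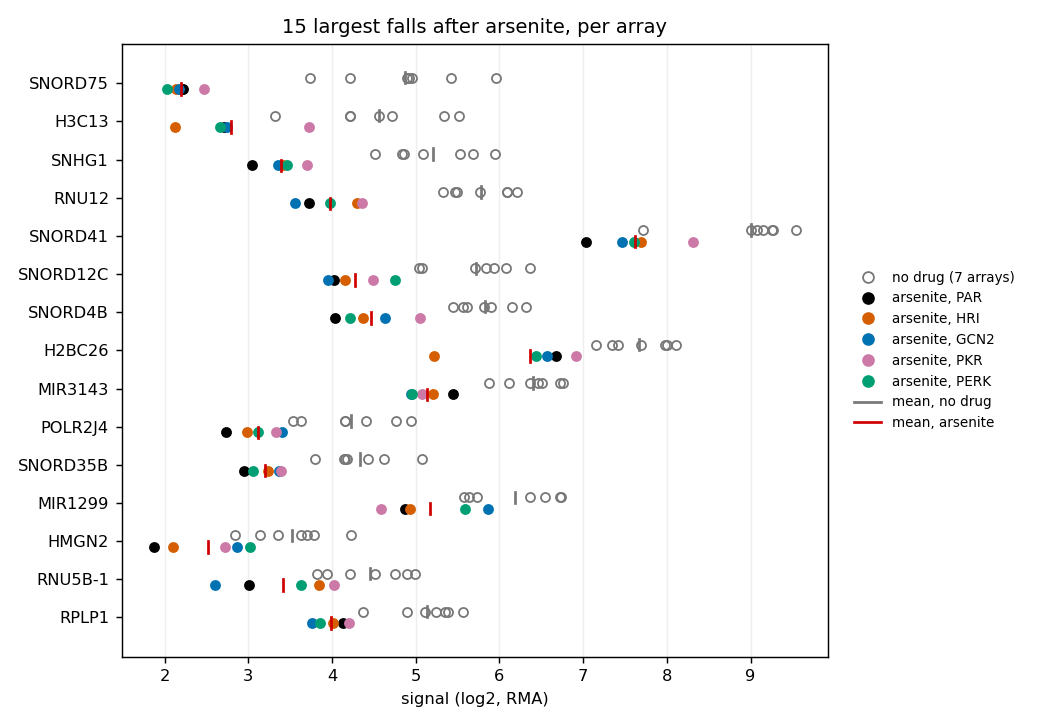
Signal (log2, RMA; horizontal axis) of the 15 genes with the largest falls in all 5 lines, with symbols as in the plot of the rises. SNORD75 lies between 2.03 and 2.47 in all 5 arsenite arrays, and 5 of the 15 (H3C13, SNORD41, MIR1299, HMGN2 and RNU5B-1) have overlapping groups.

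Called genes differed from the rest in genomic span, which took no part in their choice. Protein-coding genes called higher had a median span in RefSeq of 16.2 kb, and those higher by 2-fold or more 7.59 kb, against 28 kb for all 13178 protein-coding genes tested. Protein-coding genes called lower had a median of 76.1 kb, and 38.2% of the 76 were longer than 100 kb, against 17.8% of all. The long genes that fell include chromatin regulators, named here after their values were seen. CHD7, a remodeller, fell by 1.06 ± 0.20, with -1.70 in PAR, -0.10 in HRI, -1.28 in GCN2, -1.30 in PKR and -1.01 in PERK. The histone methyltransferase NSD1 fell by 0.96 and KMT2A by 0.86. The DNA repair kinase PRKDC fell by 0.88, with 0.11 in HRI and -1.57 in PAR. In each of these 4 genes PAR had the lowest difference and HRI the highest. Array processing was not tested as a source of the span difference.

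**Figure D5:**
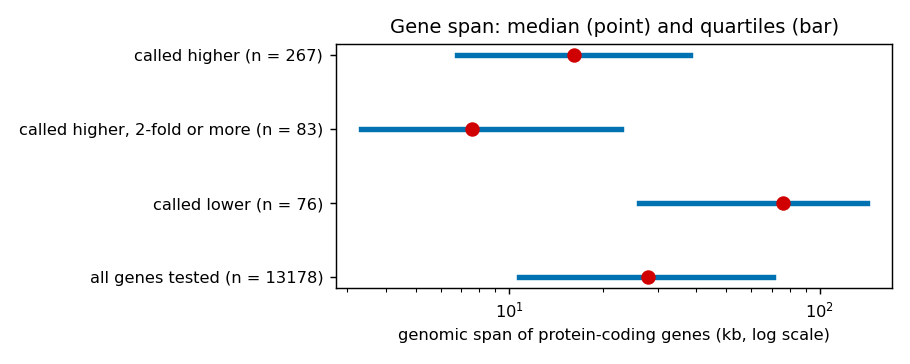
Genomic span in RefSeq (kb, log scale; horizontal axis) of protein-coding genes called higher, called higher by 2-fold or more, called lower, and all tested. Points are medians and bars run from the lower to the upper quartile. The median is 76.1 kb for called-lower genes and 28 kb for all genes tested.

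The size of the response read differently between lines, with 1 arsenite array per line and no test of the size. The baseline was the mean of 2 untreated arrays in PAR and HRI and 1 array in GCN2, PKR and PERK. Line and array cannot be told apart in these values. Over the genes called higher, the median change was 0.53 in PAR, 0.70 in HRI, 0.89 in GCN2, and 1.05 in the arrays labelled PKR and PERK. Over those called lower it was -1.06 in PAR and -0.40 in HRI, with -0.85, -0.79 and -0.80 in the others. These medians are over genes chosen from the same contrast and are a description. Over all genes tested HRI had the fewest changes beyond 1 log2 unit, 1.45%, against 2.48% to 4.18% in the other lines. By list, the median change of ATF4 and CHOP regulators was 0.49 in HRI and 0.59 in PAR, and 1.31 in GCN2, 1.11 in PKR and 0.76 in PERK. That of HSF1 chaperones was 0.52 in HRI and 0.24 in PAR, and 0.49 to 0.56 in the others.

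A response that differs in 1 line from the other 4 was tested gene by gene in limma, with 1 arsenite array on 1 side of each difference. For HRI 1 gene of 15318 was called (0.00653%; 628 at an unadjusted p under 0.05). It was H2AC20, a histone H2A gene, which differed by -2.19 ± 0.25 from the other lines (limma adjusted p = 0.0492). It read 8.70 in the HRI arsenite array and 10.72 to 10.95 in the other 4, and 8.77 in the S51A arsenite array. For PKR 1 gene was called (0.00653%; 400 unadjusted), TCEAL9 (4.89 ± 0.51, limma adjusted p = 0.0272), whose values are given above beside the labels. For PAR, GCN2 and PERK the limma calls were 0 of 15318 (0.0%), with 2303, 159 and 325 genes at an unadjusted p under 0.05. Neither call was stable: the HRI count was 0 in 10 of the 11 fits that left out 1 array and 2 other genes (LIN28A and PRTG) in the remaining one, and it was 0 without the array labelled PKR SA100. TCEAL9 kept its call in 2 of the 10 fits that left out 1 array for PKR. After a further quantile normalization GADD45G, H1-2 and SNHG12 were called beside H2AC20 for HRI.

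Against S51A, the response of the 5 lines was also tested as a difference. The limma call was 0 of 15583 genes (0.0%), with 379 at an unadjusted p under 0.05 and 1 arsenite array for S51A. Without HRI SA100, 3 genes were called lower in S51A, CHAC1, H1-2 and H2AC20, and without 1 untreated S51A array (repetition A) 2 were, CEACAM22P and EPCAM. JUN rose by 6.39 in S51A against a mean of 6.28 ± 0.81 (SD over 5 lines), HMOX1 by 4.09 against 4.53 ± 0.23 and DNAJB1 by 2.75 against 2.53 ± 0.26. For CHAC1 the S51A response was 1.00 against 3.57 ± 0.58 (difference -2.50 ± 0.42 SE), and for DDIT4 1.15 against 3.04 ± 0.67. Neither difference was called. With 1 arsenite array for S51A, a missing call does not show that the responses were alike.

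Against lomustine, an alkylating and crosslinking drug, in the same 5 lines, 273 of 15351 genes were higher with arsenite (1.78%) and 19 were lower (0.124%). This comparison uses the same arsenite arrays as the comparison with no drug. The largest differences upward were JUN (3.93), HMOX1 (3.62), MT1M (3.42), SLC30A1 (2.85) and DUSP10 (2.77). JUN read 4.66 to 6.90 with lomustine, above each untreated array, and 9.32 to 10.03 with arsenite. SLC30A1 read 5.96 to 7.09 with lomustine, below each untreated array (7.28 to 7.92), and 9.34 to 9.61 with arsenite. The 2 drugs' arrays did not overlap for SLC30A1 (2.85 ± 0.18, limma adjusted p = 3.5e-05), and its rise against no drug was 1.98. Of 9 MTF1 targets 6 were higher with arsenite than with lomustine, of 35 immediate-early factors 16, of 23 chaperones 6, and of 19 ATF4 and CHOP regulators 4. Lower with arsenite were SNORD41 (-1.77), LOC100287834 (-1.42), the histone gene H2BC21 (-1.28), ZCCHC14 (-0.97) and LENG8 (-0.94). Without the array labelled PKR SA100 the counts were 83 and 3, without that labelled PERK SA100 66 and 4, and without 1 lomustine array of PAR (repetition B) 780 and 60.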

How the data were processed

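The 24 arrays measured RNA of HAP1 lines. The authors deposited 1 table of log2 values for 53617 probe sets, made with RMA (affy) per the submitters' processing notes; versions are not given in the sources used here. Values ran from 0.71 to 12.47. The arrays give no counts, so precision depends on how many arrays a group has. Of the probe sets, 23871 carry 1 gene symbol, 1842 several and 27904 none in the platform annotation given here; the latter 2 kinds were left out. The probe set with the highest mean stood for each of 22395 genes. A gene was tested when at least 5 arrays of the fit read 2.42 (the median of all values) or more.

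Fits used limma 3.58.1 in R 4.3.3 (lmFit and eBayes, line as a block, two-sided, Benjamini-Hochberg over all genes tested, threshold 0.05) and were checked on simulated data. Gene lists (35) are described by counts and medians and were not tested as sets. The text names EGR1, ATF4, the eIF2-alpha gene and its kinases, the 15 largest rises and falls with 1 sign in all 5 lines, up to 4 called members of each list (2 where none was called), and the largest differences from lomustine and between lines; other list members with values were picked after their values were seen. The lists and the comparison were chosen with earlier results of these data known. Promoters and gene spans are RefSeq's. Tables were handled in Python 3.11.15 (pandas 2.3.3, numpy 2.4.6, matplotlib 3.10.9). Alternatives changed the filter, scaling, probe set rule, prior, line term and arrays used; leaving out both doubted arrays was added after seeing the data.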

Additional observations from a re-analysis of the deposited data

Results flagged for a closer look

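A gap rule for single arrays was applied to 210 groups of values (each named gene in the 7 untreated and in the 5 arsenite arrays), and 16 stood out. The rule marks about 1 group in 20 by chance. HRI SA100 stood apart from the other 4 arsenite arrays for 7 genes. It was low for GADD45G (4.83), H2BC26 (5.22), MT1X (9.05), MT1F (6.82), the amino acid transporter subunit SLC3A2 (8.51), PPM1D (6.82) and ORC1 (7.64). PAR SA100 was low for EIF2S1 (6.26) and EIF2AK3 (3.68). Among untreated arrays, HRI repetition A was low for SESN2 (4.05) and high for ERRFI1 (6.03) and SNHG19 (7.34). PAR repetition A was low for SNORD41 (7.72) and high for MT1X (8.52) and RN5S85 (6.38), and PAR repetition B was high for SLC7A1 (8.18).

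A test of the difference between 1 line and the other 4 singled out 2 genes. The response of H2AC20 was lower in HRI by 2.19 (a difference of -2.19), and that of TCEAL9 was higher in the array labelled PKR SA100 by 4.89. The second gene also marks the GCN2 line in untreated arrays, and a mix-up of arrays was not tested.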

How the results depend on the processing

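No paired analysis was possible because the arsenite arrays carry no repetition letter, so the repetitions cannot be paired; lines were matched, as line was a block in the comparison with no drug, and the mean of line-wise differences gave 206 higher and 81 lower. Against 292 higher and 108 lower, 162 were higher after centring and 482 with the line term left out. The lower count was 60 with no filter, 243 after quantile normalization, 167 with a trended robust prior, 234 with the line term left out and 168 over all 24 arrays. With repetition A alone as the untreated array of PAR and HRI, 235 were higher and 73 lower, and with repetition B alone 467 and 217. Over all probe sets, untreated PAR repetition A correlated at 0.9841 to 0.9847 with the arsenite arrays of HRI, GCN2, PKR and PERK. Its correlation with the other untreated arrays was 0.97 to 0.9809. The reason was not tested, so part of a change may belong to sets of arrays and not to the drug. Without the PAR line the counts were 516 and 68, without HRI 216 lower, without GCN2 113 and 17, without PKR 118 and 29, and without PERK 110 and 19. Without both doubted arrays they were 47 and 17. Leaving out 1 array gave 110 to 613 higher and 17 to 204 lower.

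Against lomustine, where 273 were higher and 19 lower, centring gave 111 and 29. The lower count was 12 with no filter, 137 after quantile normalization and 53 with the robust prior. Leaving out 1 array gave 66 to 780 higher and 2 to 60 lower. The HRI difference (1 lower) became 2 with no filter, 0 with the mean filter or centring, 4 after quantile normalization, 3 with the robust prior and 0 to 2 without 1 array. The PKR difference (1 higher) became 0 with no filter or quantile normalization and 0 to 1 without 1 array, and the S51A difference 0 to 3 lower. The causes were not tested.

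None of 83 called named genes changed sign under any alternative run; 49 to 80 kept their call without 1 array and 36 without both doubted arrays. Of 22 that were not called, 3 changed sign. EIF2S1 (0.01) was -0.015 after quantile normalization, -0.058 after centring, -0.024 over all arrays, -0.019 with repetition A, -0.060 and -0.040 without the PKR and PERK lines, -0.149 without both doubted arrays and -0.060 to 0.135 without 1 array. EIF2AK3 (-0.04) was 0.024 as a mean of line differences, 0.078 with repetition A, 0.245 and 0.017 without the PAR and GCN2 lines, and -0.256 to 0.245 without 1 array. COL1A1 was 0.010 without both doubted arrays. Values near 2.42 have little room to fall.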

Other observations

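Outside the gene lists, some genes kept their call in each of the 12 fits that left out 1 array. They were picked after their values were seen. MXD1, which competes with MYC for its partner MAX, rose from a mean of 4.18 ± 0.28 (SD, n = 7) to 6.40 ± 0.22 (SD, n = 5), a rise of 2.22 ± 0.14 (SE). BCL6, a transcriptional repressor, rose by 1.70, with 0.54 in PAR and 1.90 to 2.33 in the other lines. BAMBI, a decoy receptor of TGF-beta signalling, rose by 1.86, and the Notch target HES5 by 1.47. BRF2, a subunit of an RNA polymerase III initiation factor, rose by 1.49. CCNL1, a cyclin linked to splicing, rose by 1.57, with 0.70 in HRI and 1.54 to 2.06 elsewhere. CLK3, a kinase of splicing factors, rose by 0.71. SERTAD1 and SERTAD3, related transcriptional regulators, rose by 1.47 and 1.15.

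Among the 14 falls that kept their call throughout, INTS5, a subunit of the Integrator complex that processes small nuclear RNAs, read 5.92 ± 0.09 untreated and 5.19 ± 0.27 with arsenite, and it was lower in all 5 lines (-1.01 to -0.52).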
